A study of Mus musculus with 6 samples.

Results

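Collagens are secreted proteins in which 3 chains wind around each other along repeats of glycine and other residues, and each chain is the product of its own gene. Fibrillar chains build the banded fibrils of connective tissue. Basement membrane chains, above all type IV, form the sheet on which an epithelium rests, and FACIT chains (fibril-associated collagens with interrupted helices) sit on fibril surfaces. In the kidney tubule the epithelium itself makes type IV collagen, whereas fibrils of types I and III come mainly from fibroblasts and accumulate in fibrosis. The collagen chains were taken as every gene symbol made of Col, digits, a and digits, which gave 44 of the 24421 rows of the table. By class they were 11 fibrillar, 9 basement membrane (the 6 type IV chains with Col7a1, Col15a1 and Col18a1), 9 FACIT, 7 beaded filament, 3 short chain network, 4 transmembrane chains and Col26a1.

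The cells were mouse proximal tubular epithelial cells in primary culture with serum; they form the stretch of tubule just behind the glomerulus. All 6 cultures had received 20 µM erastin2 for 24 h. Erastin2 blocks cystine uptake by system xc- and can drive ferroptosis, a death by iron and lipid peroxidation. One group of 3 libraries is labelled Atg5F/F (floxed Atg5) and the other 3 are labelled Atg5KO, where ATG5 is needed to form autophagosomes. The labels name no Cre, strain, animal, sex or age and no untreated group, and give all 6 libraries the same batch date. Every difference is therefore between genotype labels under the drug. Since no separate animals or cultures are named, a p-value here reflects the spread among 3 libraries a group, and that spread may be purely technical.

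Values are FPKM, fragments per kilobase of gene scaled to the library total. The implied totals were 15528454 to 30004933 reads, and the collagen chains held 72085 to 132845 reads of a library. Atg5 itself stood at 8.76, 8.95 and 7.94 FPKM (Atg5F/F 1 to 3) versus 13.3, 11.5 and 12.7 FPKM (Atg5KO 1 to 3), with a log2 change of 0.50 with SE 0.066, adjusted p by limma 5.5e-04, so libraries labelled Atg5KO did not have less of it. A value for the whole gene does not show whether an exon is missing, so the directions below rest on the labels alone. Of 13 proximal tubule markers 5 were tested, and 4 of these were lower and 1 higher in KO-labelled libraries, beside 17.9% of all tested genes lower and 21.3% higher. The summed level of the list was 223 to 241 FPKM in Atg5F/F and 126 to 137 FPKM in Atg5KO libraries. Lrp2, the endocytic receptor megalin, went from 54.4 ± 0.822 to 35.4 ± 1.18 FPKM (SD, n = 3). The cotransporter genes Slc34a1 and Slc5a2 of the intact tubule had means at or under 0.133 FPKM in both groups. In bulk RNA fewer cells of a type and less RNA per cell cannot be told apart.

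The type IV genes lie head to head in pairs, so that each pair is transcribed in opposite directions from neighbouring starts. In GENCODE vM21 on GRCm38, the starts of Col4a1 (chromosome 8, 11198423 to 11312826, minus strand) and Col4a2 (chromosome 8, 11312805 to 11449287, plus strand) were 21 bases apart, and the genes overlapped by 22 bases. Col4a3 (chromosome 1, 82586921 to 82722059, plus strand) and Col4a4 (chromosome 1, 82448423 to 82586849, minus strand) started 72 bases apart. Col4a5 (chromosome X, 141475385 to 141689234, plus strand) and Col4a6 (chromosome X, 141165403 to 141474076, minus strand) started 1309 bases apart. The windows below are shown because members of a pair start next to each other and yet did not always move together. No window matched Col4a3 by symbol, so its pair is shown by the Col4a4 window alone. They are RefSeq windows on GRCm38.p6, from 250 bases before to 50 bases after each start, written 5′ to 3′ on the gene's strand. Capitals mark the SP1 box (GGGCGG), the CCAAT box (CCAAT) and the TATA box (TATAAA), searched on both strands, so that CCGCCC and ATTGG are matches read on the other strand.
Col4a1 (chr8:11312777-11313076, minus strand): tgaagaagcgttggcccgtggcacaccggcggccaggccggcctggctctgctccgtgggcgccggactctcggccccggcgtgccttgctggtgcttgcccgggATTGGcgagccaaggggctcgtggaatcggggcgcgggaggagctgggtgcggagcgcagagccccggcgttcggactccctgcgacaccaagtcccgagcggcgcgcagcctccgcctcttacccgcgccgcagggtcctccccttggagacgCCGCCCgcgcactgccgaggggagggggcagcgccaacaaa
Col4a2 (chr8:11312555-11312854, plus strand): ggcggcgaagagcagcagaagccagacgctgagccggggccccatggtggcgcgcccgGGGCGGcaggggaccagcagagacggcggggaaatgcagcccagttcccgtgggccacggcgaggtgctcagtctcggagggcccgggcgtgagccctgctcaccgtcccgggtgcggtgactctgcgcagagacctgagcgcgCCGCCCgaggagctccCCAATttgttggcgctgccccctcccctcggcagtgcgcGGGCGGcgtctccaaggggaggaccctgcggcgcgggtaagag
Col4a4 (chr1:82586800-82587099, minus strand): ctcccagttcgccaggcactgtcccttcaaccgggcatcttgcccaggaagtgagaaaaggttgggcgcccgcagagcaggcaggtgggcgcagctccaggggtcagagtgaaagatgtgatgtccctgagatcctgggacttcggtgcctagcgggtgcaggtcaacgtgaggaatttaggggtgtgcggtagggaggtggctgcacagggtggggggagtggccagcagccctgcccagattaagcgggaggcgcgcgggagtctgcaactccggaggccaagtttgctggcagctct
Col4a5 (chrX:141475169-141475468, plus strand): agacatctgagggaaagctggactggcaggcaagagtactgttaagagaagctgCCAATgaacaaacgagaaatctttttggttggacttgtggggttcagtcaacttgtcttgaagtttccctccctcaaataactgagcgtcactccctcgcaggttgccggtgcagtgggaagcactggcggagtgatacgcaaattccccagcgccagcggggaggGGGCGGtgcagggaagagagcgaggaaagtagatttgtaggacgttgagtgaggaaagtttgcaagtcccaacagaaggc
Col4a6 (chrX:141474027-141474326, minus strand): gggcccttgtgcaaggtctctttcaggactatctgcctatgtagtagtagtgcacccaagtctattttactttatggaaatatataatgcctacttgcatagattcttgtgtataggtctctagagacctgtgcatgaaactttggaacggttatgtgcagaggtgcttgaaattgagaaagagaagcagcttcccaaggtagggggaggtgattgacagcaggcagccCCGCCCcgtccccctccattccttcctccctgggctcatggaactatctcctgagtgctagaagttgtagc

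The Col4a2 window held 3 SP1 boxes and 1 CCAAT box, and the Col4a1 window 1 of each. The SP1 box 8 bases into Col4a2 and the one 10 bases into Col4a1 are the same letters of chromosome 8, at 11312812, read from opposite strands. Col4a5 held 1 SP1 box and 1 CCAAT box, Col4a6 held 1 SP1 box, and the Col4a4 window held none of the motifs. No window of these 5 held a TATA box. Over 38 windows of 35 collagen genes, 60.5% held an SP1 box, 34.2% a CCAAT box and 13.2% a TATA box. Over all 32851 windows the shares were 35.7%, 37.4% and 13.6%. A match is a description of the letters only.

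The collagen transcripts of these cells were almost wholly those of a basement membrane, with Col5a2 and Col12a1 beside them. In KO-labelled libraries Col12a1 stood 2.93 times and Col4a3 1.31 times as high, a rise in both, while Col18a1, Col4a6, Col4a2, Col4a1 and Col4a5 fell. Chains of interstitial fibrils (Col1a1, Col1a2 and Col3a1) stayed under 0.3 FPKM in every library. Only 9 of the 44 chains reached the filter of 1 FPKM in at least 3 of the 6 libraries, and these held 99.5% of all collagen reads. By limma on log2(FPKM + 1), 2 of the 9 were higher and 5 lower at adjusted p under 0.05, and 2 were not called. The background was 39.2% of the 11559 genes tested (21.3% higher and 17.9% lower). In all 9 the libraries of one group lay wholly above those of the other, with 3 higher and 6 lower in KO-labelled libraries, beside 51.9% of all tested genes (28.7% higher and 23.2% lower). Among the 35 untested chains this held for Col1a1, Col6a1, Col11a1, Col20a1, Col22a1 and Col26a1, for Col22a1 on 1 against 5 reads. The share over all untested genes was not computed, so these chains cannot be set beside a background. The median log2 fold change of the 9 was -0.17, beside 0.02 for all tested genes. A chain counts as passing the filter through either group, so these counts describe the 9 and not all 44.

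**Figure D1:**
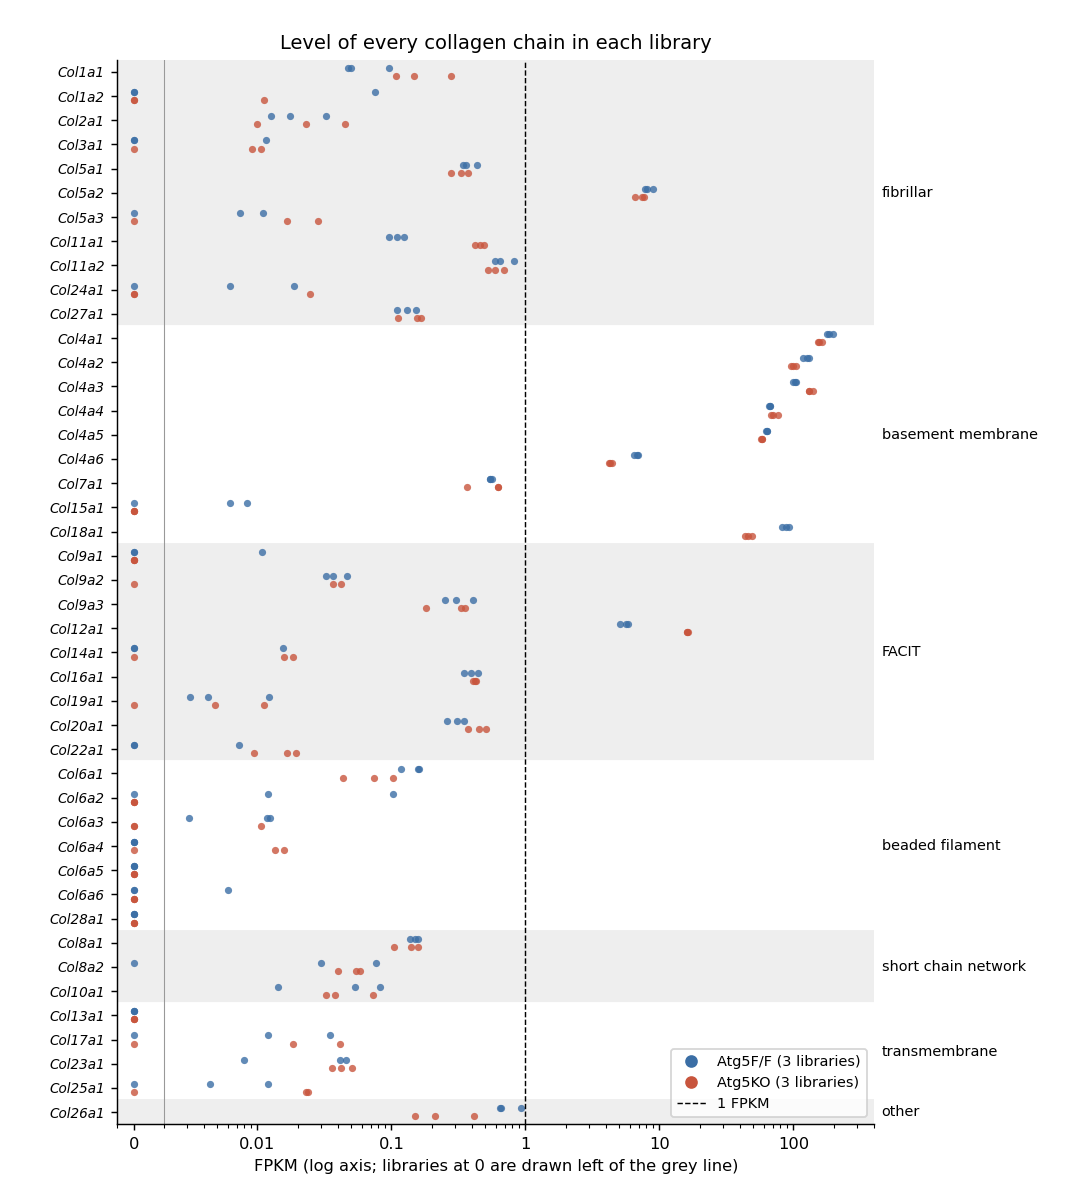
FPKM of each of the 44 collagen chains (rows, grouped by class) in each library on a log axis, with Atg5F/F libraries in blue, Atg5KO libraries in red, libraries at 0 left of the grey line and a dashed line at 1 FPKM. The 9 chains right of the dashed line are 6 type IV chains, Col18a1, Col5a2 and Col12a1, and 23 chains have means under 0.1 FPKM in both groups.

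Col4a1 and Col4a2 together make the type IV network found in nearly every basement membrane, and both fell modestly. Col4a1, the most abundant chain per length, was at 178, 198 and 183 FPKM (Atg5F/F 1 to 3) versus 152, 155 and 162 FPKM (Atg5KO 1 to 3). Col4a2 was at 118, 132 and 125 FPKM (Atg5F/F 1 to 3) versus 96.7, 99.9964 and 105 FPKM (Atg5KO 1 to 3). Each KO-labelled library lay below each F/F-labelled library in both genes. The mean of Col4a1 went from 187 ± 10.6 to 156 ± 5.22 FPKM (SD, n = 3), with a log2 change of -0.25 with SE 0.05, adjusted p by limma 0.0046. That of Col4a2 went from 125 ± 7.04 to 101 ± 4.23 FPKM (log2 change of -0.31 with SE 0.051, adjusted p by limma 0.0018). The ratio of Col4a1 to Col4a2 FPKM was 1.51, 1.51 and 1.46 (Atg5F/F 1 to 3) versus 1.57, 1.55 and 1.54 (Atg5KO 1 to 3), so the head-to-head pair kept nearly the same proportion, slightly higher in the KO-labelled libraries.

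Col4a3, Col4a4 and Col4a5 make the network of the glomerular and of some tubular basement membranes, whose loss causes Alport syndrome. Here its genes moved unequally. Col4a3 was at 105, 102 and 99.9 FPKM (Atg5F/F 1 to 3) versus 131, 132 and 139.8 FPKM (Atg5KO 1 to 3), and rose from a mean of 102 ± 2.50 to 134 ± 4.77 FPKM (log2 change of 0.39 with SE 0.041, adjusted p by limma 1.5e-04). Its neighbour Col4a4 was at 65.7, 67.0 and 66.4 FPKM (Atg5F/F 1 to 3) versus 69.8, 67.9 and 76.3 FPKM (Atg5KO 1 to 3). The groups of Col4a4 did not overlap, but the difference of 0.10 (SE 0.047) was not called (limma adjusted p = 0.12). The ratio of Col4a3 to Col4a4 FPKM went from 1.54 ± 0.0483 to 1.88 ± 0.0533 (SD, n = 3), with no overlap between groups. The exons of Col4a2 share 43 bases with the antisense transcript Gm15419. Among its exon bases Col4a3 shares 563 of 9967 with the opposite-strand transcript C430014B12Rik, and the strand setting of the counting is not given in the sources used here.

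On the X chromosome, Col4a5 was at 62.5, 63.3 and 63.3 FPKM (Atg5F/F 1 to 3) versus 57.8, 58.2 and 58.4 FPKM (Atg5KO 1 to 3). The change was small (log2 change of -0.11 with SE 0.032, adjusted p by limma 0.021) and rested on narrow spreads. It was not called without Atg5F/F replicate 3 (adjusted p = 0.086) or without Atg5KO replicate 1 (adjusted p = 0.068). Col4a6, whose product joins that of Col4a5 in a further network, was the rarest of the 6 type IV transcripts. Its values were 6.89, 6.41 and 6.78 FPKM (Atg5F/F 1 to 3) versus 4.24, 4.25 and 4.43 FPKM (Atg5KO 1 to 3), a fall from 6.69 ± 0.249 to 4.30 ± 0.105 FPKM (log2 change of -0.54 with SE 0.056, adjusted p by limma 1.5e-04). The ratio of Col4a5 to Col4a6 FPKM thus went from 9.43 ± 0.399 to 13.5 ± 0.268 (SD, n = 3).

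Summed over chains, the Col4a3, Col4a4 and Col4a5 sum was higher and the Col4a1 and Col4a2 sum lower in KO-labelled libraries, and neither pair of groups overlapped. The summed level of Col4a1 and Col4a2 was 296, 330.2 and 308 (Atg5F/F 1 to 3) versus 249, 255 and 267 (Atg5KO 1 to 3) FPKM. That of Col4a3, Col4a4 and Col4a5 was 233, 233 and 229.6 (Atg5F/F 1 to 3) versus 259, 258 and 275 (Atg5KO 1 to 3) FPKM. Their ratio, the second sum over the first, went from 0.746 ± 0.0417 to 1.03 ± 0.0145 (SD, n = 3), and within single libraries the ratio of Col4a3 to Col4a1 went from 0.550 ± 0.0367 to 0.858 ± 0.00713. These 2 ratios, like those of Col4a3 to Col4a4 and of Col4a5 to Col4a6, were chosen after the values were seen and carry no test. All 6 type IV chains together went from 550.0 ± 17.2 to 525 ± 18.5 FPKM, with overlapping groups.

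**Figure D2:**
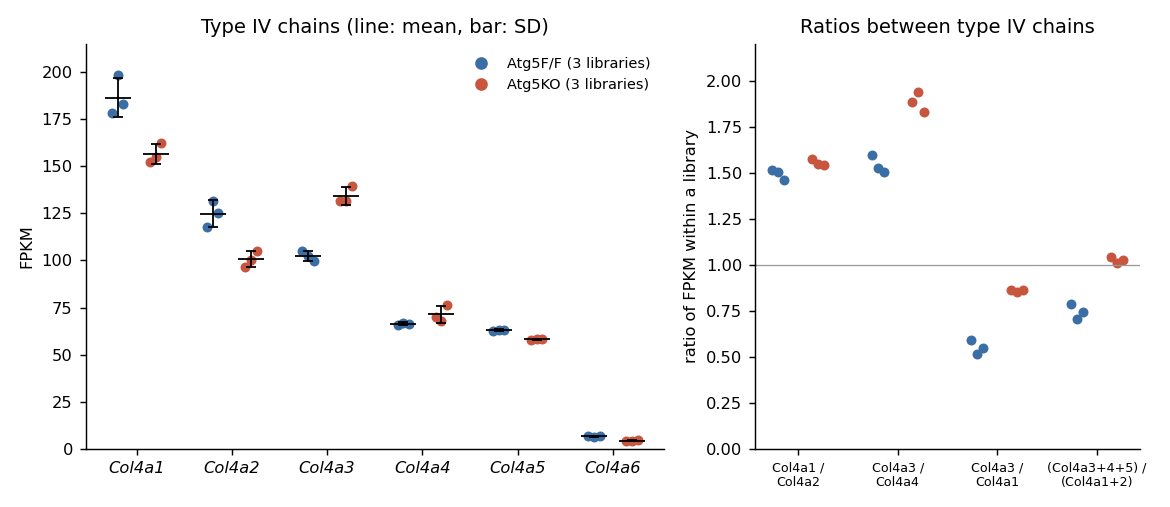
Left, FPKM of the 6 type IV chains in each library, with the mean (line) and SD (bar) of the 3 Atg5F/F (blue) and 3 Atg5KO (red) libraries. Right, ratios of FPKM between type IV chains within each library: the ratio of Col4a1 to Col4a2 lies between 1.46 and 1.57 in all 6 libraries, and that of Col4a3 to Col4a1 between 0.515 and 0.588 in blue and between 0.850 and 0.864 in red.

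Col18a1 encodes the core of a heparan sulfate proteoglycan of basement membranes, from whose end the fragment endostatin is cut. Of the 9 tested chains it had the largest fall. The gene lies at chromosome 10, 77052178 to 77166548 on the minus strand of GRCm38. Its values were 81.9, 92.6 and 88.3 FPKM (Atg5F/F 1 to 3) versus 43.5, 45.9 and 48.9 FPKM (Atg5KO 1 to 3). The highest KO-labelled library lay far under the lowest F/F-labelled one, and the KO mean was 0.526 times the F/F mean. The fall from 87.6 ± 5.37 to 46.1 ± 2.73 FPKM gave a log2 change of -0.91 with SE 0.057, adjusted p by limma 1.0e-05, and 98.1% of tested genes had a smaller absolute log2 fold change. RefSeq places starts of Col18a1 at 2 sites that lie far apart. Both windows are printed because the gene's FPKM sums over transcripts from either and does not show which start was used. The upstream window held 3 SP1 boxes and 1 CCAAT box, and the downstream window none of the motifs.
Col18a1 upstream start (chr10:77166481-77166780, minus strand): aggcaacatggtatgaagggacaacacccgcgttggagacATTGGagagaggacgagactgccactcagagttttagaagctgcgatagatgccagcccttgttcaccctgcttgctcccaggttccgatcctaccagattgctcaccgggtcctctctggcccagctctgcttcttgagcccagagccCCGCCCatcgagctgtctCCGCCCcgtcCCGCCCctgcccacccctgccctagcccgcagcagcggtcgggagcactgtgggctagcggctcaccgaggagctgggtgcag
Col18a1 downstream start (chr10:77113656-77113955, minus strand): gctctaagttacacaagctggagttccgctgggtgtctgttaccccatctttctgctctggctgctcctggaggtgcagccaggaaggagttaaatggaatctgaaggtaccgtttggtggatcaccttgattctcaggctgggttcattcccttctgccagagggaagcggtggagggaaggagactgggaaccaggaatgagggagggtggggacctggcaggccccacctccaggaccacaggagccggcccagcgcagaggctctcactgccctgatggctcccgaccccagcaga

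The other chains placed with the basement membrane were low. Col7a1, the anchoring fibril of skin and other stratified epithelia, was at 0.565, 0.546 and 0.540 FPKM (Atg5F/F 1 to 3) versus 0.364, 0.630 and 0.625 FPKM (Atg5KO 1 to 3), with overlapping groups. Col15a1, a relative of Col18a1, had 2 reads in F/F-labelled and 0 in KO-labelled libraries. A count of 0 allows up to 3 reads over the group, so no difference was detectable at this depth. Within the class, 7 of 9 chains were tested, of which 1 was higher, 5 were lower and Col4a4 was not called. The median of their log2 fold changes was -0.25.

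Among FACIT chains, Col12a1 alone passed the filter. Its product binds the surface of fibrils and is known in tendon, in wounds and in tissue under mechanical load. Col12a1 (chromosome 9, 79598991 to 79718831, minus strand) was at 5.87, 5.04 and 5.59 FPKM (Atg5F/F 1 to 3) versus 16.4, 16.1 and 15.9 FPKM (Atg5KO 1 to 3). The KO-labelled libraries lay close together and far above every F/F-labelled library. The mean rose from 5.50 ± 0.424 to 16.1 ± 0.223 FPKM (SD, n = 3; log2 change of 1.4 with SE 0.058, adjusted p by limma 1.8e-06), and 99.5% of tested genes had a smaller absolute log2 fold change. The other 8 FACIT chains stayed under 0.6 FPKM in every library. Of these, Col20a1 had non-overlapping groups (0.3501, 0.261 and 0.310 against 0.375, 0.508 and 0.453 FPKM), and was not called without the filter (limma adjusted p = 0.076). Col16a1 (0.396 to 0.420 FPKM on average) and Col9a3 (0.321 to 0.290 FPKM) had overlapping groups. Col22a1 had 1 read in F/F-labelled and 5 in KO-labelled libraries, and Col9a1, Col9a2, Col14a1 and Col19a1 had 1 to 11 reads over all 6.

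Fibrillar chains were a minor part of the collagen transcripts. Col5a2 encodes a chain of type V collagen, which sets the diameter of type I fibrils, and was the only fibrillar gene above 1 FPKM. Its values were 8.89, 8.14 and 7.84 FPKM (Atg5F/F 1 to 3) versus 7.43, 6.63 and 7.64 FPKM (Atg5KO 1 to 3). All KO-labelled values were lower, the smallest gap being that between 7.84 and 7.64 FPKM. The difference of -0.17 (SE 0.067) was not called (limma adjusted p = 0.069), but it was with median-ratio scaling (adjusted p = 0.042), quantile normalization (0.047), the length trend removed (0.012) or voom on recovered reads (0.014). Its usual partner Col5a1 was far lower, at 0.341, 0.360 and 0.437 against 0.374, 0.331 and 0.280 FPKM. The ratio of Col5a1 to Col5a2 FPKM went from 0.0461 ± 0.00883 to 0.0457 ± 0.00774 (SD, n = 3), with overlapping groups.

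Types I and III, the bulk of scar collagen, were barely detected. Col1a1 had 7, 7 and 5 reads against 10, 22 and 12 in replicates 1 to 3 of each group, or 0.0497, 0.0960 and 0.0477 against 0.108, 0.277 and 0.147 FPKM. Col1a2, the partner of Col1a1 in type I collagen, had 0, 6 and 0 reads against 0, 0 and 1, and Col3a1 had 1 read in F/F-labelled and 2 in KO-labelled libraries. With Col1a2 at 0 in 4 of 6 libraries, no ratio of the type I chains can be given for the groups. The Col1a1 groups did not overlap. Its difference was called by voom on the recovered reads (log2 fold change 1.41, SE 0.47, adjusted p = 0.023) and not by limma on log2(FPKM + 1) without the filter (adjusted p = 0.12), on 19 against 44 reads in all.

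Col11a1, a type XI chain that starts fibrils in cartilage, was also under 1 FPKM but rested on more reads. It had 21, 14 and 18 reads against 66, 60 and 53, or 0.0962, 0.124 and 0.111 against 0.460, 0.487 and 0.419 FPKM. The lowest KO-labelled library lay well above the highest F/F-labelled one. The difference was called by voom on the recovered reads (log2 fold change 2.06, SE 0.26, adjusted p = 1.9e-06) and by limma without the filter (0.39 on the log2(FPKM + 1) scale, which understates low genes, adjusted p = 6.1e-04). Its partner Col11a2 was at 0.642, 0.597 and 0.823 against 0.597, 0.527 and 0.687 FPKM, with overlapping groups and no call by either (adjusted p = 0.45 and 0.51). The genes Col1a1, Col11a1 and Col20a1 fall outside the rule for naming genes and were chosen after their values were seen. The remaining fibrillar chains were Col27a1 (0.131 to 0.144 FPKM on average, overlapping) and Col2a1, Col5a3 and Col24a1, each with 8 to 15 reads over the 6 libraries.

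Col26a1, a small chain outside the main classes, was lower in KO-labelled libraries by both of these fits. It had 53, 39 and 39 reads against 8, 19 and 10, or 0.653, 0.928 and 0.646 against 0.150, 0.415 and 0.212 FPKM. No KO-labelled library reached the lowest F/F-labelled one. The log2 fold change was -1.56 by voom on the recovered reads (SE 0.35, adjusted p = 0.0014) and -0.47 by limma without the filter (adjusted p = 0.017).

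Beaded filament, short chain and transmembrane chains were mostly near 0. Near 0 is used here for a mean under 0.1 FPKM in both groups, which held for 23 of 44 chains: 6 of 7 beaded filament, 2 of 3 short chain network, all 4 transmembrane, 5 of 11 fibrillar, 5 of 9 FACIT chains and Col15a1. Col6a5, Col13a1 and Col28a1 were listed at 0 in all 6 libraries. Type VI collagen, a microfibril abundant in interstitial matrix, had only Col6a1 above that limit, with 14, 10 and 14 reads against 8, 5 and 3. Its groups did not overlap (0.117, 0.162 and 0.158 against 0.102, 0.0743 and 0.0434 FPKM), and the difference was not called by voom on the reads (log2 fold change -0.91, SE 0.47, adjusted p = 0.14). Its partner Col6a2 had 7 reads in F/F-labelled libraries, 6 of them in replicate 2, and 0 in KO-labelled ones. Col8a1, a chain of the short network under endothelia and the cornea, went from 0.149 to 0.133 FPKM on average with overlapping groups. Near-0 chains with reads numbered 20, and 7 of the 35 untested chains had no more than 3 reads in either group.

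Over all chains with at least 10 reads in the 6 libraries, voom on the recovered reads tested 27 and called 4 higher and 7 lower, beside 36.9% of 15110 genes (20.7% higher and 16.1% lower). At an FDR under 0.05 the authors' deposited table has 4 chains higher and 7 lower, beside 22% of its 24421 rows (10.6% higher and 11.4% lower). The 11 chains called by voom were the 11 called in the authors' deposited table, in the same directions. Limma without the filter tested 41 and called 3 higher and 6 lower, beside 23.3% of 18296 genes (12.9% higher and 10.4% lower).

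The make-up of the collagen transcripts changed with these genes. Summed over all 44 chains the level was 637, 679.6 and 651 (Atg5F/F 1 to 3) versus 583, 589.8 and 623 (Atg5KO 1 to 3) FPKM. Col18a1 went from 13.4 ± 0.422 to 7.70 ± 0.213 percent of this sum (SD, n = 3), Col12a1 0.841 ± 0.0919 to 2.70 ± 0.128 percent, and the type IV chains 83.9 ± 0.255 to 87.7 ± 0.107 percent. No share overlapped between the groups. The 35 untested chains together went from 4.30 ± 0.318 to 4.18 ± 0.363 FPKM, with overlapping groups.

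**Figure D3:**
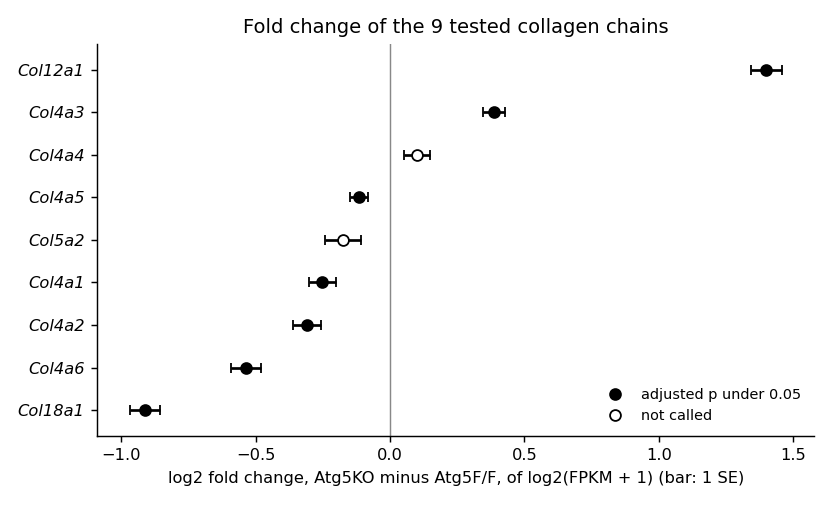
Log2 fold change of log2(FPKM + 1), Atg5KO minus Atg5F/F, with its SE (bars) for the 9 collagen chains that passed the filter. Filled points passed an adjusted p under 0.05 and open points did not: Col12a1 lies furthest right at 1.4 and Col18a1 furthest left at -0.91.

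Markers of matrix-producing cells were read beside these values. Of 10 fibroblast markers none passed the filter, 9 were near 0 (Prrx1 at 0 in all 6 libraries), Twist1 had means of 0.0428 and 0.210 FPKM, and the summed level of the list was 0.17 to 0.327 FPKM in F/F-labelled and 0.304 to 0.581 FPKM in KO-labelled libraries. The voom fit on reads that called Col1a1 higher also called Twist1 higher, on 5 against 19 reads (log2 fold change 1.89, adjusted p = 0.031). Twist1 reached the 10 reads of that fit only through the KO-labelled libraries, so its call adds nothing here. The other fibroblast markers in that fit, Pdgfra, Pdgfrb and Thy1, were not called (voom adjusted p = 0.57, 0.77 and 0.89). Pdgfra had a mean of 0.0859 and 0.0668 FPKM, and Dcn and Lum, small proteoglycans of fibroblasts, 0.0276 FPKM or less. The smooth muscle and pericyte list was higher where Col12a1 was: 5 of 6 tested markers were higher and 1 was lower, beside 21.3% and 17.9% of all tested genes, and its summed level was 77.9 to 84.4 against 258 to 319 FPKM. Acta2, the largest part of that sum, went from 40.5 to 202 FPKM. Tagln went from 28.6 to 64.9, Mcam from 7.56 to 24.9, Notch3 from 1.66 to 3.02 and Cnn1 from 0.884 to 2.31 FPKM. The lower member was Cspg4 (1.90 to 0.464 FPKM), which passed the filter only through the F/F-labelled libraries. Cnn1 was at 0.608 FPKM in Atg5F/F replicate 3 and passed the filter only through the KO-labelled libraries. The calls of Cspg4 and Cnn1 therefore add nothing to the counts. The other 3 of the 9 listed, Myh11, Des and Rgs5, were under 0.1 FPKM in both groups. Whether this list has a part in the collagen differences was not tested. Of 8 endothelial markers, Pecam1, Cdh5, Tek and Tie1 were near 0, as was the podocyte marker Nphs1. Of 2 tested endothelial markers Kdr was lower (9.06 to 5.53 FPKM) and Flt1 was not called (1.71 to 2.12 FPKM). Voom on the reads called Flt1 higher (0.32, adjusted p = 0.040). Of 3 tested podocyte markers Podxl was higher (1.57 to 2.86 FPKM), Wt1 lower (3.56 to 2.43 FPKM) and Synpo not called (23.7 to 24.3 FPKM). The background for both lists was again 21.3% higher and 17.9% lower. Of 7 leukocyte markers 2 were tested and neither was called: Csf1r went from 7.05 to 7.07 FPKM and Cd68 from 5.01 to 4.19 FPKM, while Adgre1, C1qa and Itgam were at 0. The summed level of that list was 10.96 to 13.3 and 10.3 to 12.6 FPKM. No marker of the distal tubule and collecting duct passed the filter (summed level 0.672 to 1.27 and 0.564 to 1.18 FPKM). Avpr2 of that list was called lower by voom on 22 against 2 reads (-2.53, adjusted p = 0.0095) and by limma without the filter (adjusted p = 0.013). Of the other lists' members under the filter, voom called Slc34a1 (-2.94), Slc5a12 (-0.88) and Miox (-1.12) lower and Plce1 (0.63) higher. Avpr2 and Slc34a1 (25 reads against 1) reached 10 reads only through the F/F-labelled libraries, so their calls add nothing.

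Genes that make, process and bind collagens were taken from 8 lists of 87 genes, of which 58 were tested, 17 higher and 18 lower, with a median log2 fold change of -0.02. All tested genes, the background for each list below, were 21.3% higher and 17.9% lower (39.2% called), and with lists of 3 to 15 tested genes a few calls move the share widely. New chains are hydroxylated and folded in the endoplasmic reticulum. Of 15 tested genes of this step 6 were lower, 2 higher and 7 not called (median -0.05). P3h2, a prolyl 3-hydroxylase that acts on type IV collagen, fell from 21.8 ± 0.846 to 11.1 ± 0.694 FPKM (21.3, 22.8 and 21.3 against 11.6, 10.3 and 11.3 FPKM in replicates 1 to 3 of each group; log2 change of -0.92 with SE 0.054, adjusted p by limma 7.3e-06). The prolyl 4-hydroxylase subunits P4ha1 (53.6, 52.5 and 53.6 against 43.7, 41.9 and 43.0 FPKM, -0.31) and P4hb (170.4, 177 and 172 against 138, 144 and 138 FPKM, -0.30) were lower in every KO-labelled library. Serpinh1, the collagen chaperone HSP47, was lower too (295 to 264 FPKM, adjusted p = 0.043 by limma). Of 10 export genes 2 were higher, 1 lower and 7 not called (median -0.04): Mia2, which helps load large cargo at exit sites, fell from 32.7 to 24.4 FPKM (-0.42), and Trappc2 (0.26) and the coat GTPase gene Sar1a (0.14) rose.

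Outside the cell, propeptides are cut off and chains are crosslinked. Of 3 tested propeptide genes 2 were higher and 1 lower (median 0.30). The proteinase gene Tll1 rose from 3.81 ± 0.404 to 10.4 ± 0.449 FPKM (4.24, 3.44 and 3.76 against 10.7, 10.6 and 9.88 FPKM by replicate; log2 change of 1.25 with SE 0.071, adjusted p by limma 6.7e-06), and its relative Bmp1, the main C-proteinase of fibrillar procollagens, from 23.5 to 29.2 FPKM (0.30). Pcolce, an enhancer of that cleavage, fell from 6.29 to 4.29 FPKM (-0.46). The N-proteinase genes Adamts2, Adamts3 and Adamts14 were near 0. Of 6 tested crosslinking genes 3 were higher, 2 lower and 1 not called (median 0.06). Lox, a lysyl oxidase, was at 25.1, 22.3 and 23.7 against 64.3, 59.3 and 59.5 FPKM and rose by 1.33 on the log2 scale (SE 0.052). Loxl1 went the opposite way, at 15.9, 18.2 and 16.4 against 8.52, 10.3 and 9.49 FPKM (-0.77), as did the transglutaminase gene Tgm2 at 124, 159 and 138 against 72.4, 76.8 and 69.9 FPKM (-0.93). Pxdn, the peroxidase that links type IV networks, rose from 28.5 to 33.7 FPKM (0.23).

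Turnover and binding genes were mixed as well. Of 5 tested genes of the degradation list 3 were lower, 1 higher and 1 not called (median -0.30). The list holds enzymes and their inhibitors, so its counts and median give no direction for degradation. The metalloproteinase inhibitor genes Timp1 (16.1, 17.4 and 16.3 against 12.4, 12.7 and 12.1 FPKM, -0.39) and Timp3 (24.2, 23.4 and 23.4 against 22.3, 16.1 and 18.6 FPKM, -0.32) fell, Timp2 (85.1, 87.6 and 85.3 against 108, 111 and 103 FPKM, 0.32) rose, and Mmp14, a membrane-bound collagenase, fell from 14.9 to 11.9 FPKM. Of 3 tested receptors only Itgb1, the integrin beta 1 subunit shared by collagen receptors, was called (311, 273 and 294 against 351, 346 and 337 FPKM, 0.24). Under the filter, voom on the reads called 3 list members higher, beside 20.7% of all 15110 genes in that fit. Itga2, a collagen-binding integrin subunit, was one of these (45 against 113 reads, 1.603). The others were the gelatinase gene Mmp9 (6 against 28 reads, 2.57) and the laminin chain gene Lama2 (9 against 37 reads, 2.14). Mmp9 and Lama2 reached 10 reads only through the KO-labelled libraries, so their calls add nothing to the count. How many list members under the filter were tested by voom was not counted, so no share can be set beside the background. Of 4 tested fibril partners 3 were higher and 1 lower. One of the 3, Ogn, a small leucine-rich proteoglycan, was under 1 FPKM in every F/F-labelled library and passed the filter only through the KO-labelled ones (0.499, 0.634 and 0.423 against 4.03, 3.51 and 3.55 FPKM, 1.63), so its call adds nothing to the count. Fn1, fibronectin, rose from 237 ± 12.6 to 472 ± 31.9 FPKM (0.99, SE 0.062). Thbs1, thrombospondin 1, rose from 727 to 1082 FPKM, and Sparc, a collagen-binding matricellular protein, fell from 105 to 84.7 FPKM. Decorin, lumican and fibromodulin (Dcn, Lum and Fmod), which regulate fibril growth, were near 0.

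Transcripts of the proteins laid down beside type IV collagen moved in both directions. Of 12 tested basement membrane partners 3 were higher, 4 lower and 5 not called (median -0.03). Nid1, which bridges laminin and type IV collagen, was at 7.10, 5.08 and 6.50 against 19.8, 17.0 and 16.3 FPKM and rose by 1.38 on the log2 scale (6.23 ± 1.04 to 17.7 ± 1.85 FPKM, limma adjusted p = 3.5e-05). Its relative Nid2 was not called (5.96 to 5.54 FPKM). Lamc1, the gamma 1 laminin chain, fell at 35.6, 35.5 and 36.6 against 27.5, 27.8 and 27.9 FPKM (-0.36), whereas the beta chains Lamb1 (0.20) and Lamb3 (0.28) rose. The heparan sulfate proteoglycan genes Agrn (166 to 141 FPKM, -0.24) and Hspg2 (19.3 to 16.5 FPKM, -0.21) fell, as Col18a1 of the same kind did.

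**Figure D4:**
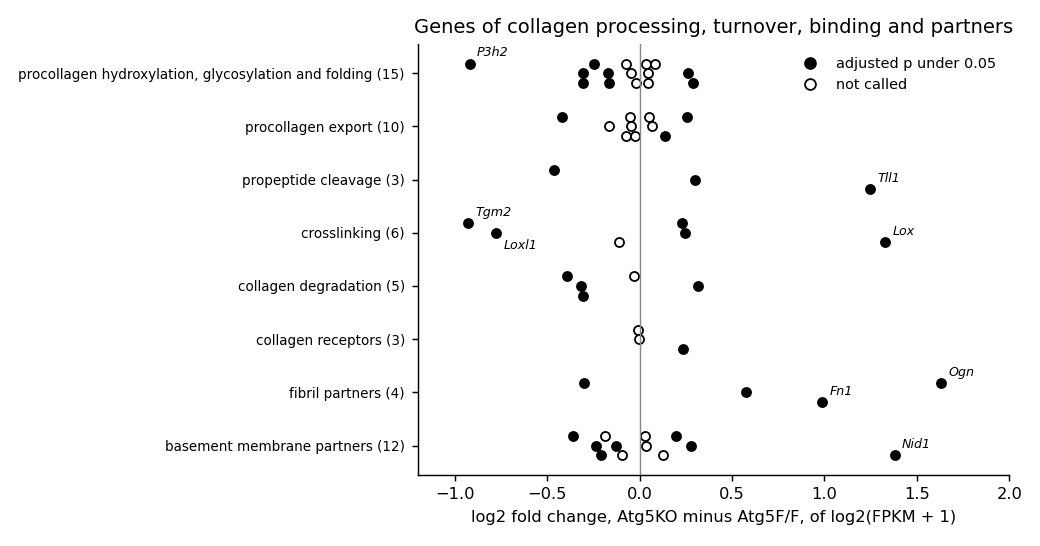
Log2 fold change of log2(FPKM + 1), Atg5KO minus Atg5F/F, of the 58 tested genes of collagen processing, turnover, binding and partners, by list with the number tested in brackets. Filled points passed an adjusted p under 0.05 and open points did not: Ogn (1.63), Nid1 (1.38), Lox (1.33) and Tll1 (1.25) lie furthest right, Ogn having passed the filter only through the Atg5KO libraries, and Tgm2 (-0.93) and P3h2 (-0.92) furthest left.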

How the data were processed

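Per the submitters' processing notes the tools were bcl2fastq, edgeR, featureCounts 1.4.6, HISAT2 2.1.0 and Trimmomatic 0.35, with GRCm38 and mm10 as builds. What annotation, strand setting and filters were used is not given in the sources used here. A single table was deposited by the authors, with FPKM per library, their own log2 fold change, 2 p-value columns (1 of them an FDR) and a ranking score.

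FPKM was tested as log2(FPKM + 1) with limma 3.58.1 in R 4.3.3 (eBayes with a variance trend), in genes reaching 1 FPKM in 3 or more of 6 libraries, Atg5KO minus Atg5F/F, with Benjamini-Hochberg adjustment over all genes tested. The steps of low FPKM values gave back whole reads for all 18296 genes above 0 (100% of their values), within 8.8e-05 of a whole number. For each gene the smallest length that made the reads of every library whole was taken. Where a small multiple of it, and not the length itself, was annotated in GENCODE, as for Col4a6, that multiple was used. Of the recovered genes 6.76% stood at their GENCODE length summed over exons. Where no annotated length matched, reads that share a factor in all libraries may come out too low. Limma's voom was then run on these reads, for genes with at least 10 reads in the 6 libraries, and called 5572. Chi-square statistics per degree of freedom of 3.28 to 6.76 separated libraries of a group, so none was taken as a duplicate. The limma fit on log2(FPKM + 1) and the recovery of reads were each tested on simulated data, and the voom fit was not.

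The chains, classes and lists were chosen with earlier results of these data known. By rule the text names Atg5, every tested chain, the 3 untested chains with the highest means (Col26a1, Col11a2 and Col7a1) and from each list up to 3 called genes of largest change. All other chains and Serpinh1, Pxdn, Mmp14, Sparc, Nid2, Lamb1, Agrn, Hspg2, Itga2, Mmp9, Lama2, the near-0 list members and the markers singled out were chosen after their values were seen. Coordinates are from GENCODE vM21, promoter windows from RefSeq GRCm38.p6 for the 35 of 44 chains that matched by symbol. Tables were read with pandas 2.3.3 and numpy 2.4.6 under Python 3.11.15.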

Additional observations from a re-analysis of the deposited data

How the results depend on the processing

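The 9 tested chains were refitted under 16 alternatives: no variance trend, a replicate block, the length trend removed, a filter of 5 FPKM or none, quantile normalization, median-ratio scaling, 0.1 as the pseudocount, each library left out, and, chosen after seeing the data, voom on the recovered reads of the same genes or of genes with at least 10 reads. Of 144 pairs of chain and alternative, 137 kept their direction and side of the threshold and 0 reversed. The 2 lost calls were those of Col4a5 and the 5 gained ones those of Col5a2, given with the results, and the cause was not tested. Chains called higher numbered 4 by voom with at least 10 reads, because Col1a1 and Col11a1 were then tested, and 2 with each library left out. Chains called lower numbered 4 to 5 with 1 library left out. With the replicate block 2 chains were higher and 5 lower, and 4668 genes were called against 4530. Deviations of same-numbered libraries correlated at 0.16, 0.08 and -0.02. Replicates 1 and 2 correlated best with their own number and replicate 3 did not. With so few libraries these values cannot decide whether the numbers pair the samples. No call of a chain changed with the block. Over all genes, higher and lower calls were 2457 and 2073, but 2082 and 2420 with median-ratio scaling and 2165 and 2268 with the length trend removed, so which direction is the more frequent depends on the scaling. Leaving out 1 library gave 3265 to 4122 called genes. Genes of the 8 partner lists called higher numbered 12 to 14 and lower 14 to 17 with 1 library left out, against 17 and 18. Under the pseudocount of 0.1 the log2 fold change of Col12a1 was 1.54. Chains with few reads limit any statement on types I, III and VI.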
